A study of Arabidopsis thaliana with 11 samples.

Results

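The response of wild type (WT) *Arabidopsis thaliana* seedlings to the peptide PSY1 was measured on 6 of the 11 arrays of the series, picked by sample title: 3 arrays of WT seedlings treated with 10 nM PSY1 for 4 h (WT + PSY1) and 3 arrays of untreated WT seedlings (WT). Seeds of WT and of the receptor knock-out line *psy1r* had germinated in flasks of liquid MS medium, shaken under continuous light, and the plants were taken as whole seedlings after a week. The labels call the untreated plants control and give no mock or vehicle treatment. The *psy1r* arrays, 2 of seedlings given the same 10 nM PSY1 for 4 h (*psy1r* + PSY1, replicates 1 and 3) and 3 of untreated seedlings (*psy1r*), are used here to set the response of WT beside that of a line without the receptor. Each array holds one sample labelled with cyanine 3, on the Agilent Arabidopsis V4 design. RNA of roots and shoots is mixed in every sample, so that fewer cells of a type and less RNA per cell cannot be told apart.

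PSY1 is a small secreted glycopeptide that carries a sulfated tyrosine. It promotes cell expansion in the root, and PSY1R, a leucine-rich repeat receptor kinase, was proposed as its receptor. In *Arabidopsis* the receptor acts on the plasma membrane proton pump, which acidifies the cell wall and thereby lets wall-loosening proteins work. Sulfated peptides of the related PSK family are sulfated by the same enzyme, TPST, and are read by receptors of the same kinase family.

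A level is given below as a percent of the 75th percentile of the processed signals of its own array (P75), and a response as log2 of WT + PSY1 over WT. Of the 43603 probes on the design, 35944 were tested, those that at least 2 of these 6 arrays read well above background, and they represent 21702 loci. Where a locus had several probes, that with the highest mean is given. An array of these 6 read 77.0% to 81.8% of its probes well above background, with a median spot intensity of 260 to 380.5 over a local background of 44 to 47. The median of all tested loci was -0.02. PSY1R itself was present in both groups of WT seedlings and far lower in the knock-out line. It stood at 35.0, 30.4 and 35.8% of P75 in WT + PSY1 and 42.2, 43.0 and 26.9% in WT, against 0.534 and 3.70% in *psy1r* + PSY1 and 1.03, 1.07 and 0.261% in *psy1r*.

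The replicates were closely alike in WT + PSY1, but in WT only replicates 1 and 2 were. The 3 WT + PSY1 arrays differed from each other by a median of 0.083 to 0.109 on the log2 scale over the tested probes. WT replicates 1 and 2 differed by 0.084. Both are about as little as duplicate spots of a probe on a single array (SD 0.068 to 0.113). That SD rests on only 18 to 27 probes per array, with duplicate spots well above background, whereas the tested probes include dim ones. WT replicate 3 stood apart, at 0.333 and 0.300 from the other WT arrays. The WT + PSY1 arrays lay 0.244 to 0.266 from WT replicates 1 and 2 and 0.407 to 0.425 from WT replicate 3, so the treated arrays lay nearer to WT replicates 1 and 2 than WT replicate 3 did. The study calls its replicates independent biological samples. The p-values below measure the spread between these arrays, which may be technical. Arrays with the same replicate number shared a slide, and on every slide WT + PSY1 lay at position 2 and WT at position 1, so that position and treatment cannot be told apart.

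**Figure D1:**
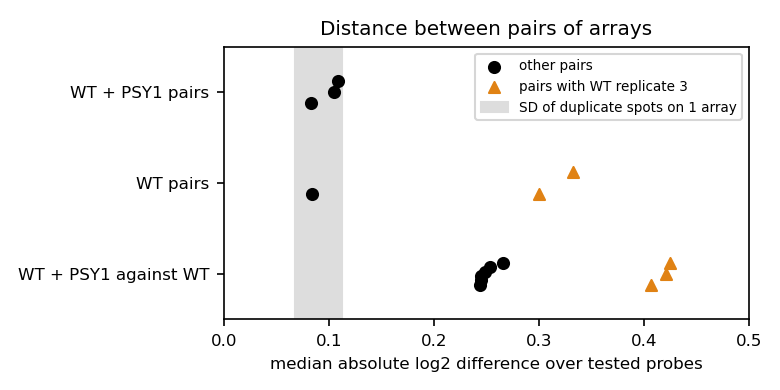
Median absolute log2 difference between pairs of arrays over the 35944 tested probes (horizontal axis), for pairs of WT + PSY1 arrays, pairs of WT arrays and pairs of a WT + PSY1 with a WT array. Triangles are pairs that hold WT replicate 3, and the grey band is the SD of duplicate spots on an array, 0.068 to 0.113, into which the 3 WT + PSY1 pairs and the pair of WT replicates 1 and 2 fall.

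In WT + PSY1, 272 probes were higher and 194 lower than in WT, each changed by over 2-fold at an adjusted p below 0.05 (limma with Benjamini-Hochberg adjustment), which is 0.757% and 0.54% of the probes tested. Counted as loci, 157 rose and 118 fell, 0.723% and 0.544% of the loci tested. Counts of called members in the gene lists below are to be read beside these shares, which a short list exceeds with 1 call. Most changes were modest: 133 of the 157 and 108 of the 118 were under 4-fold, with medians of 1.20 and -1.24. The loci that rose had a median level of 57.0% of P75, close to the 57.4% of all loci, and those that fell a median of only 6.63%. All 466 probes had groups that did not overlap, as had 44.8% of all tested probes, and the groups were apart at 23.3% of all tested loci with WT + PSY1 higher and at 24.4% with WT + PSY1 lower. Of the 44 loci that rose and had more than 1 probe, 26 had all probes in the same direction, against 18 of the 20 such loci that fell. WT replicate 3 was the WT array farthest from the treated arrays at 110 of the 157 loci that rose and 86 of the 118 that fell.

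The number of calls changed with the fit and the arrays used. With slide as a block no probe passed (lowest adjusted p = 0.108, 9987 probes at an unadjusted p below 0.05). Leaving out 1 array left 1 probe without WT + PSY1 replicate 1, 10 without replicate 2 and 1 without replicate 3, and 8 without WT replicate 1 and 6 without WT replicate 2. Without WT replicate 3, 587 probes passed, 279 higher and 308 lower, and 326 of them were among the 466. The WT group is then replicates 1 and 2 alone, which differed by only 0.084, and averaging these as one sample with replicate 3 kept left 2 probes. Calls made without WT replicate 3 therefore do not show that a change holds in independent WT samples. Of 92 called genes followed by name, 66 passed without WT replicate 3, whereas AT5G55450 alone passed without WT + PSY1 replicate 2, JMT alone without WT replicate 1, BAM6 alone without WT replicate 2, and none without WT + PSY1 replicate 1 or 3. The called genes that did not pass without WT replicate 3 passed in none of these fits, among them FLA18, MPK3, MPK11, CRK11 and CRK19. Dependence on single arrays holds for every call described below, and the level on each array is therefore given first.

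**Figure D2:**
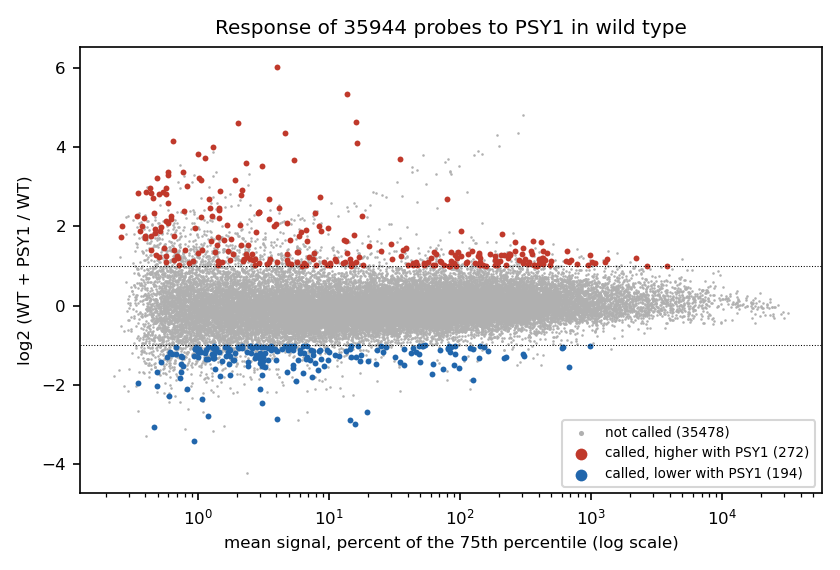
Response of each tested probe (vertical axis, log2 of WT + PSY1 over WT) against its mean level (horizontal axis, percent of P75, log scale). Red points are the 272 probes called higher in WT + PSY1, blue points the 194 called lower and grey points the rest, and dotted lines mark 2-fold.

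The largest rise at a named gene was that of JMT, the methyltransferase that makes the volatile methyl jasmonate. JMT read 18.4, 19.8 and 25.0% of P75 in WT + PSY1, against 0.591, 1.44 and 1.25% in WT (log2 fold change 4.35 ± 0.37 (SE), adjusted p = 0.0141). The WT arrays were near the detection limit and the WT + PSY1 arrays well clear of it, but the 3 probes of JMT ranged between -0.39 and 4.35, so that only the brightest gave this response. AT5G48595 read 2.78, 6.70 and 7.71% of P75 in WT + PSY1, against 0.159, 0.988 and 0.226% in WT (3.99 ± 0.80, adjusted p = 0.0399), with WT replicate 2 the highest of its group. AT3G21990 read 5.56, 3.08 and 12.6% of P75 in WT + PSY1, against 0.453, 1.0 and 1.11% in WT (2.92 ± 0.62, adjusted p = 0.0446), and here the WT + PSY1 arrays were themselves widely spread. The size of these rises depends on how faint WT signals are handled. Over the other ways of processing and fitting, JMT was as low as 2.51, AT5G48595 as low as 1.19 and AT3G21990 as low as 1.05. WVD2, a microtubule-associated protein that bends the direction of root growth, is another of the largest rises and is described with the cytoskeleton.

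The other 11 of the 15 largest rises were of probes that no WT array read well above background, so only a lower bound can be given. Of the 157 loci that rose, 26 were of this kind, and of the 118 that fell, 11 had no treated array above background. Such probes entered the test through 1 group alone, so their p-values are given as a description. The largest bounds were at least 11.5-fold for AT5G54700 (adjusted p = 0.0217), at least 11.4-fold for SCRL3 (adjusted p = 0.0118) and at least 11.2-fold for AT2G29250 (adjusted p = 0.0234). The second probe of AT5G54700 was at 0.50. AT1G64235, AT2G32310, AT3G29033 and AT4G16080 rose at least 8.17-fold, at least 7.99-fold, at least 7.89-fold and at least 7.41-fold, and AT1G51910, AT4G13266, AT1G64295 and AT4G00160 rose at least 5.53-fold, at least 5.13-fold, at least 4.94-fold and at least 4.68-fold. These bounds hold for the background subtraction of the scanner software: with normexp and local background the 11 responses were only 0.37 to 1.12 on the log2 scale. All of these stayed faint in the treated seedlings, with no array above 6.90% of P75. Another 105 called probes had no locus in the annotation, and 2 of them gave larger rises than any gene: the probe A_84_P808053 read 31.6, 31.6 and 33.7% of P75 in WT + PSY1, against 0.573, 0.664 and 0.332% in WT (6.01), and A_84_P801897 read 109, 81.1 and 77.5% in WT + PSY1, against 2.72, 2.64 and 1.48% in WT (5.33). In the knock-out line A_84_P808053 stood at 29.8 and 0.559% in *psy1r* + PSY1 and at 0.407, 0.390 and 10.2% in *psy1r*.

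Among the falls, the loci AT4G20970, a basic helix-loop-helix (bHLH) protein, and AT1G10585, also annotated as a transcription factor, changed most at a level that could be read on every array. AT4G20970 read 5.79, 5.53 and 5.77% of P75 in WT + PSY1, against 41.0, 36.5 and 60.8% in WT (log2 fold change -2.98 ± 0.20 (SE), adjusted p = 0.0118), and its second probe fell to the same extent (-2.88). AT1G10585 read 8.25, 7.16 and 7.89% of P75 in WT + PSY1, against 36.2, 35.0 and 95.9% in WT (-2.68 ± 0.42, adjusted p = 0.0257), with -2.85 at its other probe. In both genes the treated arrays were almost equal and WT replicate 3 was the highest, and WT replicates 1 and 2 also lay far above the treated arrays.

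AT5G52390 read 1.31, 1.40 and 1.3% of P75 in WT + PSY1, against 6.19, 6.01 and 10.6% in WT (-2.46 ± 0.24, adjusted p = 0.0146), and AT2G15780 1.34, 1.22 and 1.86% of P75 in WT + PSY1, against 5.97, 5.83 and 6.72% in WT (-2.09 ± 0.18, adjusted p = 0.0141). AT3G05950 was brighter, at 67.0, 65.3 and 67.7% in WT + PSY1 and 189, 189.7 and 398% in WT (-1.86 ± 0.31, adjusted p = 0.0287), and here WT replicate 3 was far above the other WT arrays. ELI3-2, an alcohol dehydrogenase induced in defence, was not above background on any treated array and fell at least 9.31-fold (adjusted p = 0.0429). The same held for AT1G63057, which fell at least 6.82-fold, AT1G72141, at least 4.54-fold, GolS6, a galactinol synthase, at least 3.27-fold, and ACA7, an alpha carbonic anhydrase, at least 2.35-fold. With normexp and local background these 5 were at -0.80 to -0.26 on the log2 scale, below their bounds. AT4G02655 and AT1G63410, above background on 1 treated array each, fell with log2 fold changes of -2.35 and -2.1, AT1G63410 being at -0.46 with its other probe. Over the other ways of processing and fitting, these falls were as small as -0.54 and -0.41. MYB112, PRX52 and CIPK25, which complete the 15 largest falls, are described with their families.

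The genes of sulfated peptides and their receptors did not pass the test. Of 15 tested, 7 were higher and 8 lower with a median of -0.03, or 0.06 with scaling by the array median. The PSY1 precursor gene read 128, 107 and 121% of P75 in WT + PSY1, against 97.5, 95.7 and 83.8% in WT (0.36 ± 0.11, adjusted p = 0.0867), so that all treated arrays were above all WT arrays but by little. PSK2, a precursor of the related peptide phytosulfokine, read 413, 383 and 426% in WT + PSY1 and 272, 279 and 125% in WT (0.94 ± 0.34, adjusted p = 0.126), with WT replicate 3 far below the other WT arrays. PSY1R (-0.12), the phytosulfokine receptor PSKR1 (-0.05), the shared co-receptor BAK1 (-0.03) and the sulfotransferase TPST (-0.10) lay between -0.12 and -0.03, PSKR1 and BAK1 turning to 0.03 and 0.06 with scaling by the array median.

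None of the 10 plasma membrane proton pump genes tested changed by 2-fold, and 7 were lower with a median of -0.16. AHA1 (HA1 in the annotation), one of the main pumps of the plant together with AHA2, read 450.1, 418 and 419.9% in WT + PSY1 and 520.0, 492 and 564% in WT (-0.29 ± 0.08, adjusted p = 0.0817), and AHA2 was at 0.10. The largest difference was that of HA9, at 4.28, 4.47 and 5.19% in WT + PSY1 and 6.89, 7.20 and 7.85% in WT (-0.66 ± 0.11, adjusted p = 0.027). The difference at HA9 passed the adjusted p but not the 2-fold limit, and its groups did not overlap.

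**Figure D3:**
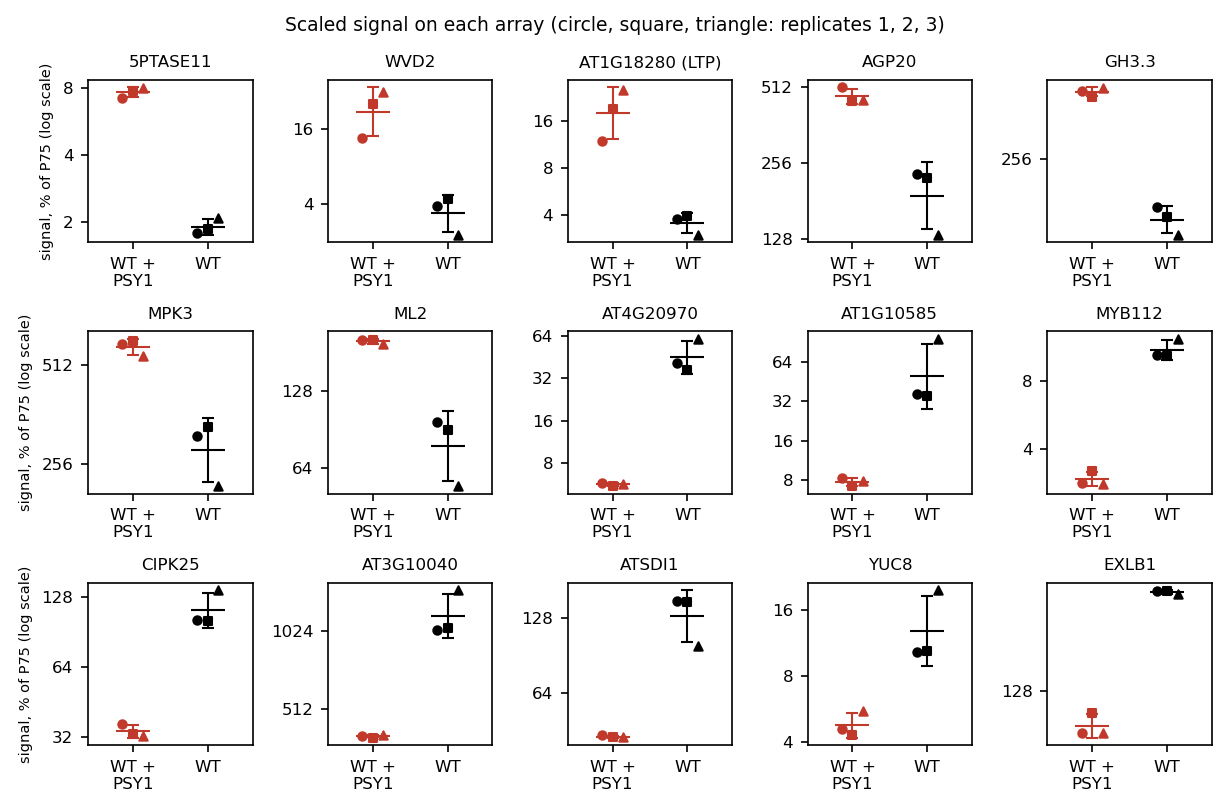
Level of 15 genes on each array (percent of P75, log scale) in WT + PSY1 (red, left) and WT (black, right). Circles, squares and triangles are replicates 1, 2 and 3, the horizontal line is the mean and the bar the SD of 3 arrays. The groups do not overlap in any panel, and the triangle of WT lies farthest from the treated arrays in 12 of 15.

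Small secreted cysteine-rich peptides were among the loci that rose. The SCR-like peptides take their name from the pollen ligand of self-incompatibility in *Brassica*. Of 10 tested, 2 rose, against 0.723% of all loci, and none fell, with a median of 0.31. SCRL17 read 9.05, 11.5 and 4.16% of P75 in WT + PSY1, against 1.39, 2.26 and 1.43% in WT (2.19 ± 0.43, adjusted p = 0.0382). SCRL3, with the bound given above, read 1.95, 2.91 and 3.49% in WT + PSY1 and 0.159, 0.122 and 0.187% in WT. It entered the test through the treated arrays alone. Other members differed as much without passing the test, SCRL2 at 2.37 ± 0.79 and SCRL19 at -1.83 ± 0.77, so the list did not move one way.

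The plant defensins, antimicrobial peptides of the cell wall, had 1 call among 12 tested. PDF1.2b read 39.8, 36.9 and 43.7% of P75 in WT + PSY1, against 12.2, 12.4 and 24.7% in WT (1.37 ± 0.30, adjusted p = 0.0479). PDF1.2, the usual reporter of combined jasmonate and ethylene signalling, read 129.8, 117 and 131% in WT + PSY1 and 25.9, 26.4 and 93.1% in WT (adjusted p = 0.102), and PDF1.3 and PDF1.2c were at 1.16 ± 0.28 and 1.15 ± 0.30 without passing. In all 4 genes WT replicate 3 was the WT array nearest to the treated ones, and without it 4 defensins passed. These genes are near-identical in sequence, and their probes cannot be taken as separate measurements.

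The RALF peptides, which alkalinise the cell wall and act against expansion, had 1 call among 16 tested, with 8 higher and 8 lower. AT2G32785, known as RALF35, was above background on 2 treated and no WT array and rose at least 3.53-fold (adjusted p = 0.0331), though its response was 0.35 on the log2 scale with normexp and local background. RALFL33, a far more abundant member, read 648, 678 and 648% in WT + PSY1 and 452, 469.6 and 356% in WT (0.64 ± 0.12, adjusted p = 0.0376), below the 2-fold limit. The lipid transfer proteins, secreted carriers of wall lipids, had 3 calls among 17, all higher, against 0.723% of all loci that rose. AT1G18280, a member anchored in the membrane, read 11.8, 19.2 and 25.4% of P75 in WT + PSY1, against 3.76, 3.90 and 2.97% in WT (2.35 ± 0.30, adjusted p = 0.0189). The neighbouring loci AT5G55450 and AT5G55460 read 5.6, 5.04 and 5.33% in WT + PSY1 and 1.45, 1.54 and 1.42% in WT (1.86 ± 0.08, adjusted p = 0.00747) and 4.2, 4.31 and 3.84% in WT + PSY1 and 1.55, 1.64 and 2.33% in WT (1.18 ± 0.17, adjusted p = 0.0234). The other 14 lipid transfer proteins did not pass, and the list median was 0.08.

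Genes of the cell wall and of the cytoskeleton had few calls each. Of 52 arabinogalactan and extensin proteins 2 rose. AGP20, a small arabinogalactan peptide, read 513, 452 and 456% of P75 in WT + PSY1, against 232, 225 and 134% in WT (1.31 ± 0.23, adjusted p = 0.0326), with 0.32 at its second probe. FLA18, a fasciclin-like member, read 349.9, 346 and 369.9% in WT + PSY1 and 177, 189 and 108% in WT (1.21 ± 0.23, adjusted p = 0.0354). In both, WT replicates 1 and 2 lay close together below the treated arrays and WT replicate 3 lower still.

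None of 30 XTH enzymes, which cut and rejoin xyloglucan, passed the test, and 18 were higher with a median of 0.16. That median was -0.06 without WT replicate 3. XTR6 gives an example, at 1511, 1504 and 1358% in WT + PSY1 and 970.1, 915 and 427% in WT (1.01 ± 0.34, adjusted p = 0.111). Of 28 expansins, the proteins that loosen the wall at low pH, none rose and 1 fell, with 14 higher and 14 lower. EXLB1, an expansin-like member, read 103, 114 and 102% of P75 in WT + PSY1, against 220.3, 219.9 and 217% in WT (-1.04 ± 0.08, adjusted p = 0.0119), and its second probe was at -1.39. The WT arrays of EXLB1 were almost equal, WT replicate 3 included.

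WVD2 and the actin depolymerising factor ADF4 were the 2 calls among 36 microtubule and actin genes. WVD2 read 13.5, 25.6 and 32.2% of P75 in WT + PSY1, against 3.86, 4.37 and 2.27% in WT (log2 fold change 2.73 ± 0.41 (SE), adjusted p = 0.0242). ADF4, which severs actin filaments and is abundant in seedlings, read 2068, 1974 and 2009.9% in WT + PSY1 and 995, 998 and 717% in WT (1.18 ± 0.15, adjusted p = 0.0188). The largest difference of the list was not called: TUB4, a beta-tubulin, read 558, 515 and 534% in WT + PSY1 and 0.165, 472 and 597% in WT, a single WT array being close to 0 and the other WT arrays at the treated level. Chosen after their values were seen, 3 more genes of growth rose, none of which passed when any single array was left out. LNG2, which promotes the lengthening of leaf cells, read 643, 649 and 652% in WT + PSY1 and 336, 356 and 187% in WT (1.20 ± 0.26, adjusted p = 0.0467), but its 3 probes reached down to -0.12. DA1, a peptidase that restricts organ size, read 104, 108 and 104% in WT + PSY1 and 55.3, 57.8 and 35.0% in WT (1.13 ± 0.21, adjusted p = 0.0339), with -0.41 at its other probe. GAUT9, of the family that builds pectin, read 489.7, 482 and 469% in WT + PSY1 and 255, 256 and 191% in WT (1.05 ± 0.13, adjusted p = 0.0189).

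Among auxin genes there were calls in both directions. The SAUR genes encode small proteins that in their best known members activate the proton pump. Of 67 tested, 2 rose, against 0.723% of all loci, and none fell, and 46 were higher with a median of 0.31. AT1G29450, annotated as SAUR64, read 54.0, 55.7 and 55.7% of P75 in WT + PSY1, against 23.1, 28.8 and 18.4% in WT (1.26 ± 0.17, adjusted p = 0.0204). SAUR26 read 18.4, 19.4 and 18.2% in WT + PSY1 and 8.83, 9.58 and 8.12% in WT (1.08 ± 0.09, adjusted p = 0.0141). The median of the list was 0.17 without WT replicate 3, and its largest values belonged to probes with a single deviating WT array, such as AT1G16510 at 39.6, 47.1 and 44.6% in WT + PSY1 and 0.173, 45.3 and 69.4% in WT (adjusted p = 0.529).

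GH3.3, which conjugates auxin to amino acids and is itself induced by auxin, was the only call among 20 GH3 and auxin transport genes. GH3.3 read 426, 407 and 434% of P75 in WT + PSY1, against 179, 167 and 147% in WT (1.37 ± 0.10, adjusted p = 0.0119). Of 26 Aux/IAA repressors none was called, 11 were higher and 15 lower, and the median was -0.05. The groups did not overlap at 5 members that were higher and 6 that were lower, near the 23.3% and 24.4% of all loci. The largest values were those of IAA5 and IAA19 (1.32 ± 0.61 and 0.84 ± 0.44), the lowest those of IAA28 (-0.74) and IAA14 (-0.70). IAA19 read 78.9, 73.1 and 70.6% in WT + PSY1 and 62.2, 55.9 and 20.6% in WT, with WT replicate 3 far below the rest. The YUC flavin monooxygenases, which make auxin, were looked at after their values were seen, and 3 of the 9 tested fell. YUC8 read 4.55, 4.29 and 5.51% of P75 in WT + PSY1, against 10.3, 10.4 and 19.7% in WT (-1.43 ± 0.29, adjusted p = 0.0403). YUC9 read 5.6, 6.04 and 5.50% in WT + PSY1 and 12.2, 13.4 and 12.1% in WT (-1.14 ± 0.08, adjusted p = 0.0119), and YUC6 3.99, 3.51 and 3.51% in WT + PSY1 and 7.11, 7.0 and 10.1% in WT (-1.12 ± 0.17, adjusted p = 0.0242). All 3 stayed above background in the treated seedlings at levels of 3.51 to 6.04% of P75.

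Of 28 jasmonate genes 23 were higher, with a median of 0.39, and JMT alone passed the test. JAZ7, a repressor that is itself induced by jasmonate, read 835, 857 and 962% in WT + PSY1 and 434, 459 and 139% in WT (1.54 ± 0.49, adjusted p = 0.0997). The biosynthesis gene OPR3 read 1958, 1906 and 1927% in WT + PSY1 and 1266, 1254 and 559% in WT (1.01 ± 0.34, adjusted p = 0.115). In both, and in LOX4 (1.0 ± 0.56), WT replicates 1 and 2 were nearer to the treated level and WT replicate 3 far below. The list median was 0.34 without WT replicate 3, and it was 0.58 for *psy1r* + PSY1 against *psy1r*. ORA47, a transcription factor that switches on jasmonate synthesis, fell, at 32.7, 32.8 and 30.6% in WT + PSY1 and 69.4, 63.3 and 93.7% in WT (-1.21 ± 0.16, adjusted p = 0.0194), and so did JRG21, a jasmonate-regulated oxygenase gene, at 29.0, 33.8 and 28.8% in WT + PSY1 and 67.8, 71.9 and 112% in WT (-1.42 ± 0.21, adjusted p = 0.0241). These 2 genes were picked after their values were seen.

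Ethylene genes had 2 calls up and 1 down among 51, with a median of -0.03 that was 0.06 with scaling by the array median. ERF53, a factor of the drought-responsive branch of the family, read 9.48, 10.6 and 10.1% of P75 in WT + PSY1, against 3.25, 3.40 and 1.18% in WT (2.09 ± 0.44, adjusted p = 0.0432). ACS4, a synthase of the ethylene precursor that auxin induces, read 1.86, 1.81 and 1.63% in WT + PSY1 and 0.783, 0.7 and 0.546% in WT (1.40 ± 0.15, adjusted p = 0.0163), where only 1 WT array was above background. Over the other ways of processing and fitting, the response of ACS4 was as low as 0.28. ERF73, also known as HRE1 and part of the low oxygen response, read 79.9, 88.8 and 91.2% in WT + PSY1 and 159.6, 168 and 236% in WT (-1.1 ± 0.17, adjusted p = 0.0257), and -1.36 at its second probe. ERF1, which joins ethylene to jasmonate, read 69.9, 82.5 and 73.2% in WT + PSY1 and 128, 136 and 339.8% in WT (adjusted p = 0.0995) and did not pass.

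Of 15 low oxygen genes 2 fell, against 0.544% of all loci, and none rose, and the median was -0.22. AT3G10040, annotated as HRA1, an attenuator of the hypoxia response, read 404, 398 and 407% of P75 in WT + PSY1, against 1034, 1054 and 1472% in WT (-1.54 ± 0.15, adjusted p = 0.0149). Its WT + PSY1 arrays were within a few percent of each other. The second gene was ERF73, described above. Of 28 genes of abscisic acid and dehydration, COR15A alone fell. This cold-induced chloroplast protein read 20.5, 18.2 and 19.1% in WT + PSY1 and 40.9, 36.4 and 41.8% in WT (-1.04 ± 0.09, adjusted p = 0.0141), and 19 of the 28 were lower.

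Transcription factors of several families had calls. Of 99 MYB factors 4 fell and none rose, against 0.544% of all loci that fell, and the median was -0.16. MYB112 read 2.84, 3.20 and 2.83% of P75 in WT + PSY1, against 10.4, 10.3 and 12.2% in WT (-1.89 ± 0.10, adjusted p = 0.0118). MYB78 read 10.4, 10.5 and 10.3% in WT + PSY1 and 24.9, 23.8 and 27.9% in WT (-1.29 ± 0.08, adjusted p = 0.0118), MYB27 1.79, 1.65 and 2.11% in WT + PSY1 and 4.58, 4.28 and 7.28% in WT (-1.51 ± 0.23, adjusted p = 0.0255) and MYB56 4.98, 4.96 and 4.99% in WT + PSY1 and 10.7, 9.36 and 16.2% in WT (-1.24 ± 0.21, adjusted p = 0.0301). MYB112 and MYB78 had treated and WT arrays in tight groups, and in MYB27 and MYB56 WT replicate 3 was well above the other WT arrays. Without WT replicate 3, 8 MYB factors fell, but WT then rests on the near-identical replicates 1 and 2.

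Of 66 WRKY factors 1 rose and 2 fell. WRKY41 read 10.2, 14.3 and 16.6% in WT + PSY1 and 6.37, 7.66 and 5.06% in WT (1.1 ± 0.24, adjusted p = 0.0469), WRKY65 60.0, 57.6 and 57.9% in WT + PSY1 and 105, 102 and 158% in WT (-1.02 ± 0.19, adjusted p = 0.0336) and WRKY31 4.30, 4.43 and 4.09% in WT + PSY1 and 7.71, 8.83 and 13.4% in WT (-1.18 ± 0.22, adjusted p = 0.0334). None of 84 NAC factors passed, and none of the 22 factors with a bHLH number as symbol or synonym, a list that does not hold AT4G20970 and AT1G10585, which fell. Outside the lists, and chosen after their values were seen, BEH4, a relative of the brassinosteroid factor BES1, rose, at 192, 194 and 183% in WT + PSY1 and 109, 107 and 62.1% in WT (1.08 ± 0.24, adjusted p = 0.0482). TGA1, a bZIP factor of defence and nitrate signalling, fell, at 55.5, 60.2 and 52.3% in WT + PSY1 and 107, 99.997 and 155% in WT (-1.08 ± 0.19, adjusted p = 0.0301), with all 4 of its probes between -1.08 and -0.73. WOX11, which starts new roots, also fell, at 1.68, 2.2 and 1.80% in WT + PSY1 and 4.0, 4.26 and 6.24% in WT (-1.33 ± 0.21, adjusted p = 0.0259).

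Kinases of signalling gave calls in both directions. Of 27 MAP kinase genes 2 rose. MPK3, an abundant kinase of immunity and development, read 595, 608 and 547% of P75 in WT + PSY1, against 311, 332 and 219% in WT (1.04 ± 0.18, adjusted p = 0.029). MPK11, a kinase activated by pathogen signals, read 20.7, 20.4 and 22.2% in WT + PSY1 and 11, 10.8 and 9.72% in WT (1.0 ± 0.08, adjusted p = 0.0141), just past 2-fold. Of 29 cysteine-rich receptor-like kinases 2 rose and 1 fell, with 20 higher and a median of 0.29. Among all loci 0.723% rose and 0.544% fell. CRK11 read 128, 123 and 127% in WT + PSY1 and 66.9, 66.3 and 43.3% in WT (1.13 ± 0.19, adjusted p = 0.0286) and CRK19 643, 651 and 583% in WT + PSY1 and 342, 332 and 239% in WT (1.06 ± 0.16, adjusted p = 0.0246), while CRK13 fell, at 2.02, 1.68 and 1.96% in WT + PSY1 and 4.31, 4.02 and 5.64% in WT (-1.29 ± 0.16, adjusted p = 0.018).

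5PTASE11, which removes a phosphate from phosphoinositide lipids, was the single call among 17 genes of inositol phosphatases and phosphoinositide kinases and had arrays in tight groups. It read 7.22, 7.72 and 8.0% of P75 in WT + PSY1, against 1.79, 1.87 and 2.1% in WT (log2 fold change 2.0 ± 0.09 (SE), adjusted p = 0.00764). CIPK25, a kinase that calcium sensors activate, fell, at 36.4, 32.8 and 32.4% in WT + PSY1 and 102, 101 and 136% in WT (-1.73 ± 0.14, adjusted p = 0.0141). ML2, also called AML2, an RNA-binding protein of embryo development, rose, at 203, 203 and 195% in WT + PSY1 and 96.5, 89.8 and 54.2% in WT (1.37 ± 0.23, adjusted p = 0.0297), with 0.37 at its second probe. CRL, a plastid envelope protein needed for plastid division, rose, at 675, 719.8 and 698% in WT + PSY1 and 373, 379 and 285% in WT (1.02 ± 0.13, adjusted p = 0.0189).

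Nutrient lists changed at few genes. Of 20 sulfate transporters and sulfur deficiency genes 1 rose and 2 fell, with a median of -0.32, against 0.723% and 0.544% of all loci. ATSDI1, a protein induced by sulfur shortage that holds back glucosinolate synthesis, read 43.4, 42.6 and 42.8% of P75 in WT + PSY1, against 149, 149 and 98.4% in WT (-1.6 ± 0.18, adjusted p = 0.0166). LSU3, another gene of the sulfur deficiency response, read 21.4, 24.0 and 19.2% in WT + PSY1 and 53.5, 44.6 and 77.1% in WT (-1.41 ± 0.22, adjusted p = 0.0265). The sulfate transporter SULTR3;1 rose, at 25.8, 26.3 and 25.5% in WT + PSY1 and 12.4, 12.3 and 8.95% in WT (1.22 ± 0.15, adjusted p = 0.0174). ATSDI1 differed from most falls in that WT replicate 3 was the WT array nearest to the treated ones.

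None of 15 phosphate starvation genes passed, although SPX3, an inhibitor of the phosphate response, read 314, 284 and 317% in WT + PSY1 and 108, 108 and 32.3% in WT (2.08 ± 0.50, adjusted p = 0.0585) and MGD2, a galactolipid synthase of phosphate shortage, 376, 370.3 and 383% in WT + PSY1 and 193, 208 and 78.7% in WT (1.36 ± 0.39, adjusted p = 0.0823). The phosphate transporter PHT1;2, which was chosen after its values were seen and is nearly identical to PHT1;1, fell, at 9.76, 10.5 and 11% in WT + PSY1 and 19.4, 18.5 and 25.6% in WT (-1.01 ± 0.15, adjusted p = 0.0221), while PHT1;1 was at -0.47. Among 23 iron genes the ferritin FER1 fell, at 34.1, 33.4 and 35.0% in WT + PSY1 and 59.2, 58.2 and 97.1% in WT (-1.02 ± 0.22, adjusted p = 0.0448), and its 3 probes ranged between -1.27 and -0.23. Among 17 starvation genes the beta-glucosidase DIN2 fell, at 1.75, 2.5 and 1.62% in WT + PSY1 and 4.39, 5.39 and 7.50% in WT (-1.55 ± 0.26, adjusted p = 0.029). BAM6 was the only call among 21 genes of starch breakdown: this beta-amylase read 1.32, 1.51 and 1.52% in WT + PSY1 and 0.26, 0.211 and 0.262% in WT, no WT array being above background, and rose at least 5.62-fold (adjusted p = 0.00797), though its response was 0.34 on the log2 scale with normexp and local background.

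Most genes of flavonoid synthesis and glutathione transfer were lower in WT + PSY1 without passing the test. None of 11 flavonoid genes passed, but 10 were lower, with a median of -0.38. DFR, which makes the precursors of anthocyanins, read 3.43, 3.93 and 4.17% in WT + PSY1 and 10.3, 10.7 and 40.0% in WT (-2.1 ± 0.56, adjusted p = 0.0705), and its regulator PAP1 2.39, 2.80 and 2.41% in WT + PSY1 and 3.04, 3.40 and 13.6% in WT (-1.04 ± 0.60, adjusted p = 0.294). Of 39 glutathione S-transferases 32 were lower with a median of -0.40, and GSTU22 alone fell, at 17.6, 17.3 and 18% in WT + PSY1 and 33.5, 34.4 and 39.4% in WT (-1.02 ± 0.09, adjusted p = 0.0141). GSTF12, which carries anthocyanins to the vacuole, read 9.55, 9.85 and 9.49% in WT + PSY1 and 18.3, 19.5 and 83.2% in WT (adjusted p = 0.133), its WT replicate 3 standing far above the other WT arrays as in DFR and PAP1. Without WT replicate 3 the medians were -0.35 for the flavonoid genes and -0.33 for the transferases.

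PRX52, a peroxidase of lignin formation, was the single call among 11 class III peroxidases. PRX52 read 3.68, 4.02 and 4.34% of P75 in WT + PSY1, against 12.6, 13.0 and 16.5% in WT (-1.80 ± 0.13, adjusted p = 0.0128). The monolignol glucosyltransferases UGT72E2 and UGT72E3, chosen after their values were seen, fell together, at 24.3, 25.6 and 27.6% in WT + PSY1 and 50, 51.3 and 64.1% in WT (-1.09 ± 0.12, adjusted p = 0.0166) and 67.4, 64.6 and 62.6% in WT + PSY1 and 142, 114 and 138% in WT (-1.01 ± 0.11, adjusted p = 0.0159). CYP86B1, which makes very long chain suberin monomers, was the single call among 20 genes of suberin and cutin and fell, at 2.59, 3.82 and 2.82% in WT + PSY1 and 5.35, 6.85 and 7.40% in WT (-1.1 ± 0.20, adjusted p = 0.0334). Other falls picked after their values were seen were those of RNS1, an RNase of wounding and phosphate shortage, at 48.9, 63.2 and 49.9% in WT + PSY1 and 131, 137 and 190.0% in WT (-1.49 ± 0.19, adjusted p = 0.0185), TI1, a trypsin inhibitor, at 136, 140.0 and 138% in WT + PSY1 and 297, 304 and 452% in WT (-1.32 ± 0.18, adjusted p = 0.0204), and PRN, a pirin that binds a G protein subunit, at 91.5, 85.3 and 90.5% in WT + PSY1 and 202, 197 and 275% in WT (-1.32 ± 0.15, adjusted p = 0.0166).

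Photosynthesis genes were mostly higher in WT + PSY1 without passing the test. Of 42 genes of antenna and Rubisco proteins 37 were higher, with a median of 0.27, and none passed the test. PSBX, a small photosystem II subunit, read 12693, 10743 and 11034% in WT + PSY1 and 7593, 7347 and 4761% in WT (0.83 ± 0.21, adjusted p = 0.0604). The median of the list was 0.11 without WT replicate 3. Of 50 lists in all, 12 had calls in WT + PSY1 that were only higher, 9 only lower, 4 both and 25 none, among them the brassinosteroid, gibberellin, cyclin, cellulose synthase, clock, heat shock and ribosomal protein lists. No list was tested as a set, and the counts are a description.

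**Figure D4:**
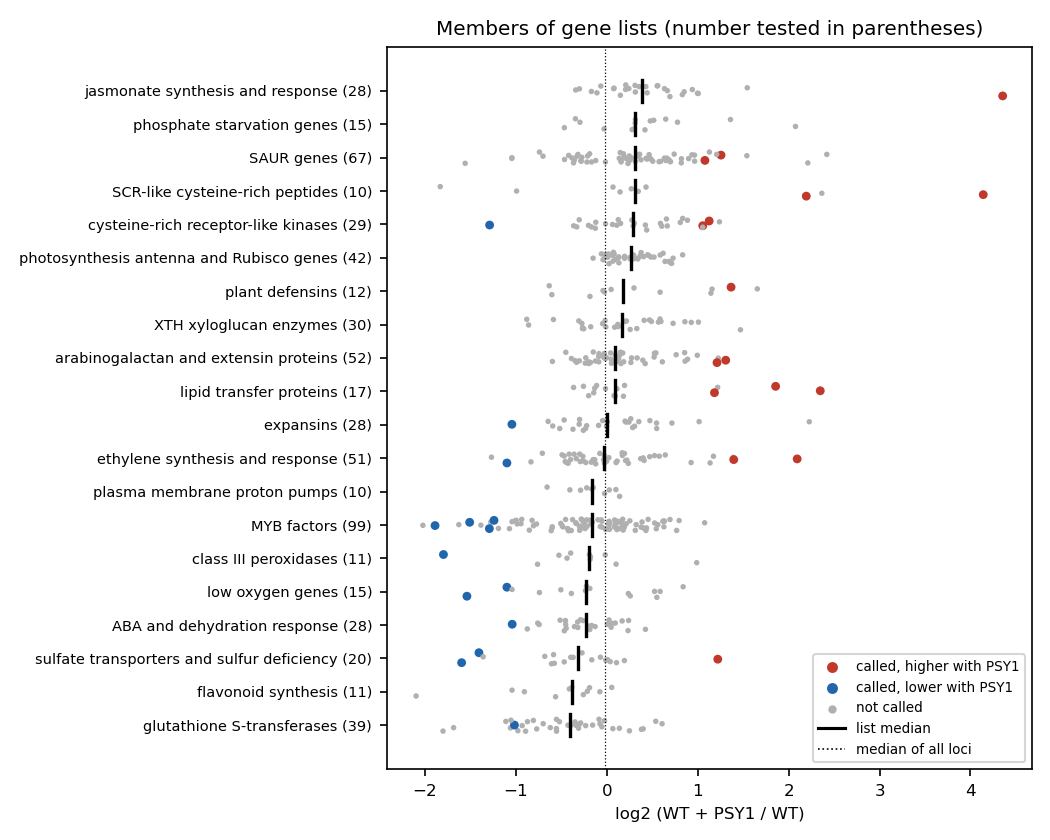
Responses (log2 of WT + PSY1 over WT, horizontal axis) of the members of 20 gene lists, with the number of members tested in parentheses. Red and blue points are called members, grey points members that were not called, the black bar the median of the list and the dotted line the median of all tested loci (-0.02). Called members lie beyond 2-fold by the rule of a call, and the list medians lie between -0.40 and 0.39.

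Markers of tissues varied beside these results, mostly through the WT arrays. Summed over 13 seed storage and maturation genes, WT + PSY1 arrays read 57.0 to 69.7% of P75 and WT arrays 47.6 to 171%, and over 8 root hair genes 117 to 132% and 66.9 to 176%. The sum of 7 endodermis genes was lower in WT + PSY1, at 359 to 366%, against 428 to 445% in WT. By gene, 2 were higher and 5 lower. The sum of 7 guard cell genes was lower, at 197.4 to 199%, against 213.6 to 268.3% in WT, with 3 genes higher and 4 lower. The sum of 6 phloem genes was higher in WT + PSY1, at 1962 to 1994%, against 1268 to 1923% in WT. By gene, 3 were higher and 3 lower, with a median of -0.02. The sum of 7 shoot meristem genes was higher, at 50.96 to 52.52%, against 45.19 to 50.03% in WT, with 4 genes higher and 3 lower. The sums of 8 mesophyll genes overlapped, at 91160 to 110300% and 88570 to 100600%, as did those of 7 xylem genes, at 157 to 162% and 127 to 289%. Of the markers, GEA6, a seed maturation gene, passed the test, above background on no treated array and lower in WT + PSY1 at least 2.26-fold (adjusted p = 0.0331), and at -0.19 on the log2 scale with normexp and local background. The part of these tissues in the gene responses was not tested.

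The response of WT was set beside that of *psy1r*. Of the 157 loci that rose in WT, 95 had a response above 0 in *psy1r*, with a median of 0.07, and of the 118 that fell, 35 had a response below 0, with a median of 0.22, where the median of all loci was 0.01. Over all loci the responses of the lines had a Pearson correlation of 0.035, given as a description. No probe passed the test in *psy1r* + PSY1 against *psy1r* (limma, lowest adjusted p = 0.0774), where 378 probes had an unadjusted p below 0.05 and a change above 2-fold. That comparison has 2 treated arrays, which differed from each other by a median of 0.368. Summed over the 13 seed genes, *psy1r* + PSY1 replicate 1 read 40.6% of P75 and replicate 3 1544%, against 78.7 to 159% in *psy1r*. The part of this gap in the *psy1r* response and in the differences between the lines was not tested. A response past the threshold in one line only does not show that the lines differ, so the difference itself was tested.

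The difference between the responses of the lines passed at 15 probes, 9 with a positive and 6 with a negative difference of *psy1r* minus WT (0.025% and 0.0167% of the probes tested). They represent 10 loci, 0.0461% of those tested. Of these, 6 fell in WT + PSY1 or were lower there and were higher in *psy1r* + PSY1, as in MYB112, which read 2.84, 3.20 and 2.83% in WT + PSY1, 10.4, 10.3 and 12.2% in WT, 8.37 and 10.3% in *psy1r* + PSY1 and 5.10, 5.08 and 3.97% in *psy1r* (difference 2.88 ± 0.22, adjusted p = 0.013). The untreated knock-out line was below untreated WT at this gene. AT4G20970 followed the same order, at 5.79, 5.53 and 5.77% in WT + PSY1, 41.0, 36.5 and 60.8% in WT, 33.5 and 27.3% in *psy1r* + PSY1 and 12.6, 12.5 and 7.61% in *psy1r* (difference 4.49 ± 0.36, adjusted p = 0.013).

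The other 4 were higher in WT + PSY1. 5PTASE11, at 7.22, 7.72 and 8.0% in WT + PSY1 and 1.79, 1.87 and 2.1% in WT, read 5.21 and 3.56% in *psy1r* + PSY1 and 4.36, 4.46 and 4.59% in *psy1r* (difference -2.05 ± 0.22, adjusted p = 0.0322). The levels of the knock-out line overlapped and lay between those of the WT groups. SPX1, a phosphate sensor protein, read 2171, 2098 and 2216% in WT + PSY1, 1705, 1755 and 1754% in WT, 1236 and 1239% in *psy1r* + PSY1 and 2131, 1975 and 2090.1% in *psy1r* (difference -1.05 ± 0.12, adjusted p = 0.0435). With slide as a block no difference passed, and the count ranged between 0 and 723 as single arrays were left out, the highest without *psy1r* + PSY1 replicate 1, where 1 array remains in that group and the other groups supply the spread.

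**Figure D5:**
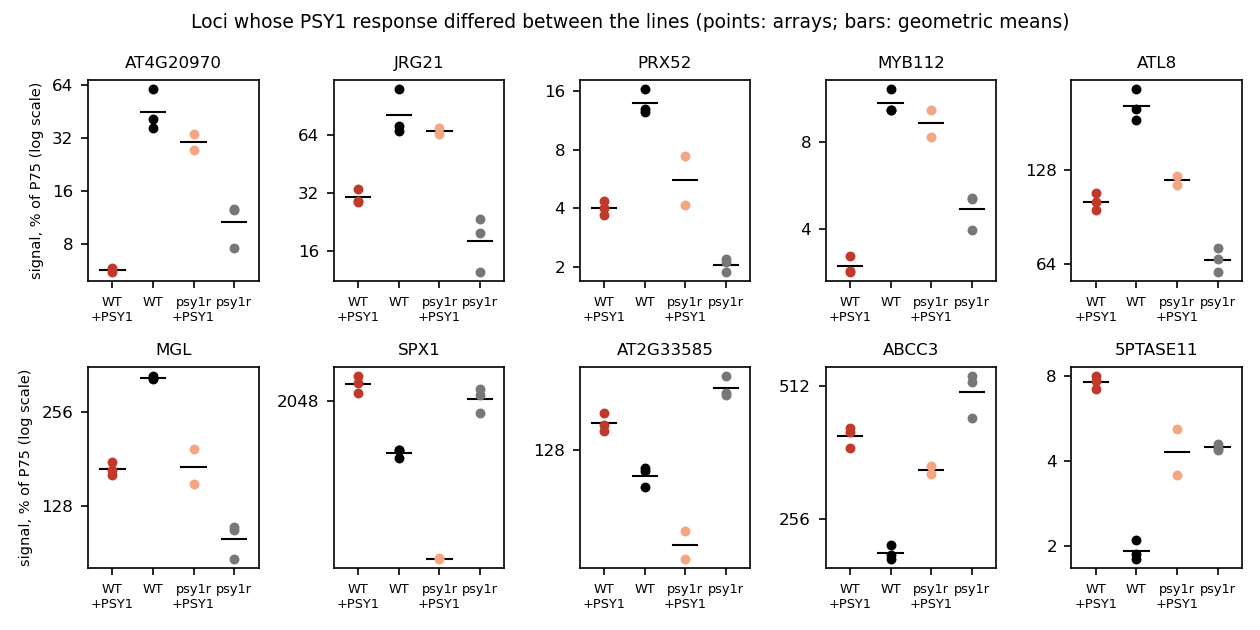
Level (percent of P75, log scale) of the 10 loci whose response differed between the lines, on the arrays of WT + PSY1, WT, *psy1r* + PSY1 and *psy1r*. Points are arrays and bars geometric means. In 6 panels the level is lower in WT + PSY1 than in WT and higher in *psy1r* + PSY1 than in *psy1r*, in 3 the reverse, and in 5PTASE11 the arrays of the knock-out line overlap.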

How the data were processed

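Per array, the authors deposited the spot and processed intensity from Agilent Feature Extraction, and for all arrays a table of log2 values. This table corresponds to the processed intensity scaled to each array's 75th percentile and centred per row. The methods name RMA in GeneSpring. Here the processed intensity was scaled to the 75th percentile and converted to log2, control and outlier spots were left out, and spots of a probe were averaged. A few probes lack a value on some array (96 tested probes). Loci and symbols came from the RefSeq annotation of TAIR10.1, which gave a locus to 34358 of 43603 probes.

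The test of responses was lmFit and eBayes of limma 3.58.1 under R 4.3.3 (3 against 3 arrays, Benjamini-Hochberg), with calls at an adjusted p below 0.05 and above 2-fold, the limits of the methods. The difference between lines was fitted on 11 arrays. For a group with no array well above background, the bound is the mean log2 level of the other group against, per array, the lowest level well above background or the probe's own if higher. Named genes are the 15 loci with the largest rise and fall among calls, PSY1R, PSY1, the genes with primers in the study, and called list members or otherwise up to 4 with the largest change; further ones are marked as chosen after their values were seen. No probe was matched to ACT2 or RALF22. The members and lists were chosen with earlier results of these data known.

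Replicate numbers name slides. Deviations of same-numbered WT + PSY1 and WT arrays correlated at 0.09, -0.14 and 0.30. Alternatives were other background corrections and scalings, the deposited log2 table, filters, the block, array weights, the methods' one-way analysis of variance and leaving out arrays. The median spot intensity was used for background corrections, and limma's saddle-point estimate in place of that of RMA. Averaging near-identical arrays and the 4-group fit with the block were added after the data had been seen. Scripts were tested on simulated data.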

Additional observations from a re-analysis of the deposited data

Results flagged for a closer look

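The response to PSY1 differed between *psy1r* and WT, by limma's test of the difference itself over 11 arrays, at 10 loci. The differences are log2 responses in *psy1r* minus those in WT. They included AT4G20970 (4.49, adjusted p = 0.013) and MYB112 (2.88, adjusted p = 0.013), and they were -2.05 in 5PTASE11 (adjusted p = 0.0322) and -1.05 in SPX1 (adjusted p = 0.0435), whose levels on all arrays are given above.

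JRG21, a jasmonate-regulated oxygenase gene, had a difference of 3.33 (adjusted p = 0.0392), reading 29.0, 33.8 and 28.8% of P75 in WT + PSY1, 67.8, 71.9 and 112% in WT, 65.0 and 69.6% in *psy1r* + PSY1 and 19.9, 23.4 and 12.4% in *psy1r*. The peroxidase PRX52 had a difference of 3.24 (adjusted p = 0.0223), at 3.68, 4.02 and 4.34% in WT + PSY1, 12.6, 13.0 and 16.5% in WT, 4.17 and 7.44% in *psy1r* + PSY1 and 2.18, 2.1 and 1.88% in *psy1r*. In both genes the untreated lines stood apart by more than the treated ones. ATL8, a RING finger protein, had a difference of 1.86 (adjusted p = 0.0223), at 95.4, 108 and 101% in WT + PSY1, 185, 200.5 and 232% in WT, 115 and 123% in *psy1r* + PSY1 and 60.4, 66.3 and 71.8% in *psy1r*. MGL, a methionine lyase, had a difference of 1.73 (adjusted p = 0.0392), at 161, 167 and 177% in WT + PSY1, 332, 326 and 329% in WT, 151 and 195% in *psy1r* + PSY1 and 107, 110.3 and 86.9% in *psy1r*.

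ABCC3, a vacuolar transporter of conjugates, had a difference of -1.47 (adjusted p = 0.0365), at 371, 410.1 and 403% in WT + PSY1, 208, 212 and 223% in WT, 323 and 337% in *psy1r* + PSY1 and 537, 523 and 434% in *psy1r*. AT2G33585 had a difference of -1.33 (adjusted p = 0.0353), at 139, 143 and 151% in WT + PSY1, 109, 117 and 118% in WT, 89.6 and 79.3% in *psy1r* + PSY1 and 165, 163 and 177% in *psy1r*. In ABCC3 and AT2G33585 untreated *psy1r* lay above every other group. No difference passed with slide as a block.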

How the results depend on the processing

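The count of probes called in WT + PSY1 against WT was 466. It was 451 with quantile normalization, 469 with the deposited table, 357 without a filter on dim probes, 412 with probes well above background on all 6 arrays and 475 with a trended, robust prior. Scaling by the array median gave 492, but 73.8% of the calls were then higher against 58.4%, as that scaling moved the median of all probes to 0.04 from -0.05. Convolution background without local background gave 231 and normexp with local background 176, with 71.4% and 70.5% higher. One-way analysis of variance, named in the methods and run here per probe on the WT and WT + PSY1 arrays alone, gave 266 after Benjamini-Hochberg adjustment and 743 before it, all 4 groups in one fit 107, array weights 789, unadjusted p 1048, no limit on the fold 3956 and each locus counted once 275. The causes were not tested.

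With the replicate number, which is the slide, as a block 0 probes passed, for the interaction 0 in place of 15 and for *psy1r* 0 as without it. With the 4 groups and the block it was 0 as well. WT replicates 1 and 2 averaged as one sample left 2, and averaging the near-identical arrays of all 4 groups, which was added after seeing the data and leaves fewer samples, left 0 for WT and 0 for the interaction. Leaving out single arrays gave 1 to 587 calls in WT, 0 to 723 for the interaction and 0 to 86 in *psy1r*. The 723 and 86 came without *psy1r* + PSY1 replicate 1, which leaves 1 array in that group, assumed to vary like the other groups. The convolution background gave 15 for the interaction and 6 in *psy1r*.

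Of 169 genes followed by name, 92 called, no called gene changed sign. AT1G16510, not called, ranged between -0.36 and 3.96 as single arrays were left out. Genes near 0 changed sign as well: HA2 to -0.02 with both background corrections, PSKR1 to 0.03 with the array median and 0.01 with quantile normalization, and BAK1 to 0.06 with the array median, 0 with averaged arrays and -0.09 to 0.04 as single arrays were left out. Of the 92, 80 stayed called with quantile normalization, 78 with the array median, 51 and 37 with the 2 background corrections, 31 with all 4 groups and 0 with the block. Arrays give no depth, and the size of a change moved with the background correction, at faint genes and at brighter ones: with normexp and local background SCRL3 was at 0.80 in place of 4.14, WVD2 at 1.92 in place of 2.73, AT5G52390 at -0.95 in place of -2.46, 5PTASE11 at 1.12 in place of 2.0 and MYB112 at -1.08 in place of -1.89.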
